A study of Homo sapiens with 12 samples.

Results

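The 37 genes described here encode proteins of homologous recombination, the Fanconi pathway and mismatch repair, and were taken by gene name from a listed set. That set was drawn up with earlier results of these data known. All 37 were found among the 58735 genes of the count table, and all 37 passed the filter on low counts that 17277 genes passed. RNA came from BCPAP, a cell line established from a human papillary thyroid carcinoma, grown in medium with fetal bovine serum. The groups were siNOX4 cells at 1% oxygen, siControl cells at 1% oxygen, siNOX4 cells at 20% oxygen and siControl cells at 20% oxygen, with 3 libraries each, which the submitters describe as separate transfections. siNOX4 is an siRNA against the NADPH oxidase NOX4, a source of hydrogen peroxide, and siControl is a scrambled siRNA, so every group, controls included, was transfected. In what follows 1% oxygen is called hypoxia and 20% oxygen normoxia. The time spent at 1% oxygen is not given in the labels, and a single cell line was used.

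Homologous recombination repairs a DNA double-strand break from an intact copy of the sequence: the broken ends are trimmed to single strands, and mediators led by BRCA1, PALB2 and BRCA2 prepare such a strand to invade the copy. The Fanconi core complex attaches ubiquitin to FANCD2 and FANCI at crosslinks between DNA strands and so opens a repair that ends in recombination, while ATM and ATR are the kinases that sense breaks and stalled replication forks. Mismatch repair removes base mismatches and small loops left by replication. Many of these genes are known to be transcribed most strongly around S phase, and in several other cancer cell lines severe oxygen shortage has been described to lower BRCA1 and other recombination genes.

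NOX4 itself was counted 4, 3 and 4 times in the siNOX4 hypoxia libraries, against 17, 8 and 13 times in the siControl hypoxia libraries. In normoxia it was counted 1, 5 and 3 times with siNOX4, against 8, 13 and 6 times with siControl, so that siNOX4 libraries were lower at each oxygen level, at very low counts. Library totals ranged from 16559386 to 21282835 counts. The libraries of 3 groups lay close together, with a biological coefficient of variation of 8.58% in siNOX4 hypoxia, 5.33% in siControl hypoxia and 7.07% in siNOX4 normoxia. In siControl normoxia it was 31.7%, because replicates 1 and 3 stood apart from replicate 2. Values without these 2 libraries are also given for a part of the genes whose call or size this changes. Of defining thyroid genes, PAX8, NKX2-1 and FOXE1 were expressed in every library, while TG, TSHR and SLC5A5 were at 0 or near it and did not pass the filter. PAX8 and NKX2-1 moved with the split: PAX8 was at 1735 and 1640 CPM in siControl normoxia replicates 1 and 3 (CPM being the counts of a gene scaled to a common library size) and at 382 to 551 CPM in the other libraries, and NKX2-1 at 43.3 and 46.8 CPM in these 2 libraries and at 131 to 165 CPM in the others. Fibroblast markers did not move together. COL3A1, a fibroblast collagen, was at 10.6 and 11.4 CPM in these 2 libraries and at 0 to 0.266 CPM elsewhere. COL1A1, another collagen, was at 11.8 and 10.2 CPM in them and at 11.3 CPM in siControl normoxia replicate 2. THY1 was at 88.1 and 75.5 CPM in them and at 81.8 CPM in that replicate 2, and DCN, FAP and PDGFRA were near 0 throughout. Immune markers summed to between 1.36 and 4.38 CPM outside these 2 libraries, which reached 7.73 and 6.21 CPM, of which CD14 alone made 7.14 and 5.97 CPM, with the other immune markers at or near 0. Endothelial markers did not move together: PECAM1 was higher in these 2 libraries (30.6 and 22.2 CPM, against 1.63 to 3.63 CPM in the others), TIE1 was lower (11.2 and 15.4 CPM, against 19.5 to 37.3 CPM), and CDH5 and VWF were near 0 throughout. The 7 endothelial markers summed to 33.8 to 36.4 CPM in siNOX4 hypoxia and 25.4 to 30.4 CPM in siControl hypoxia, against 38.9 to 41.9 CPM in siNOX4 normoxia and 31.5 to 44.9 CPM in siControl normoxia. The part of such differences in the results below was not tested.

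With hypoxia most of the recombination and Fanconi genes rose and the large checkpoint kinases fell. In siNOX4 cells 22 of 37 genes rose and 6 fell, and in siControl cells 19 rose and 4 fell. The background was 28.8% of all genes tested called higher and 27.8% lower in siNOX4 cells, and 25.7% called higher and 27.6% lower in siControl cells, so the genes that rose made up 59.5% and 51.4% of the 37, above those shares, and the genes that fell made up 16.2% and 10.8%, below them. The median log2 fold change, hypoxia over normoxia, was 0.73 in siNOX4 cells and 0.56 in siControl cells, beside 0.03 in siNOX4 cells and -0.01 in siControl cells over all genes tested. A gene is called here at a Benjamini-Hochberg adjusted p under 0.05 in edgeR's quasi-likelihood test, adjusted over all genes tested. Without siControl normoxia replicates 1 and 3, a fit chosen after the data were seen, the median of the 37 genes was 0.729 in siNOX4 cells and 0.734 in siControl cells. The 4 genes lower in siControl cells became 2, ATM and ATR, without siControl hypoxia replicate 2. In bulk RNA a change in the share of cells of a state and a change in RNA per cell cannot be told apart.

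The hypoxia comparisons of the siNOX4 and siControl cells share no library, but they come from the same fit with a shared estimate of the spread. In both, 18 genes rose and 3 fell, where 19.3% and 19.9% of all genes tested did so. The rises common to both were BRCA1, BARD1, BRIP1, RAD51C, RAD51D, XRCC2, XRCC3, RAD54L, EXO1, CHEK1, FANCA, FANCB, FANCC, FANCG, FANCL, FANCD2, FANCI and MLH3, and the falls were ATM, ATR and PMS1. PALB2, BRCA2, RAD50 and PMS2 were called higher, and RAD52, CHEK2 and FANCE lower, in siNOX4 cells alone, while NBN was called higher and RBBP8 lower in siControl cells alone. Without siControl normoxia replicates 1 and 3, the siControl values were 1.34 for PALB2, 1.72 for BRCA2, 0.75 for RAD50, 0.70 for PMS2 and -0.37 for FANCE. The siNOX4 values of NBN and RBBP8 stayed at 0.42 and -0.24 in that fit, with SEs of 0.14 and 0.09, against 0.18 and 0.13 with all 12 libraries. The remaining 7 genes, RAD51B, RAD54B, MRE11, FANCF, FANCM, MSH3 and MSH6, passed in neither, and no gene was called in opposite directions. The log2 fold changes had the same sign in 34 of 37 genes, the exceptions being MRE11, FANCF and FANCM, and in 80.9% of all 17277 genes tested. That is a description over genes, which are not independent replicates.

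**Figure D1:**
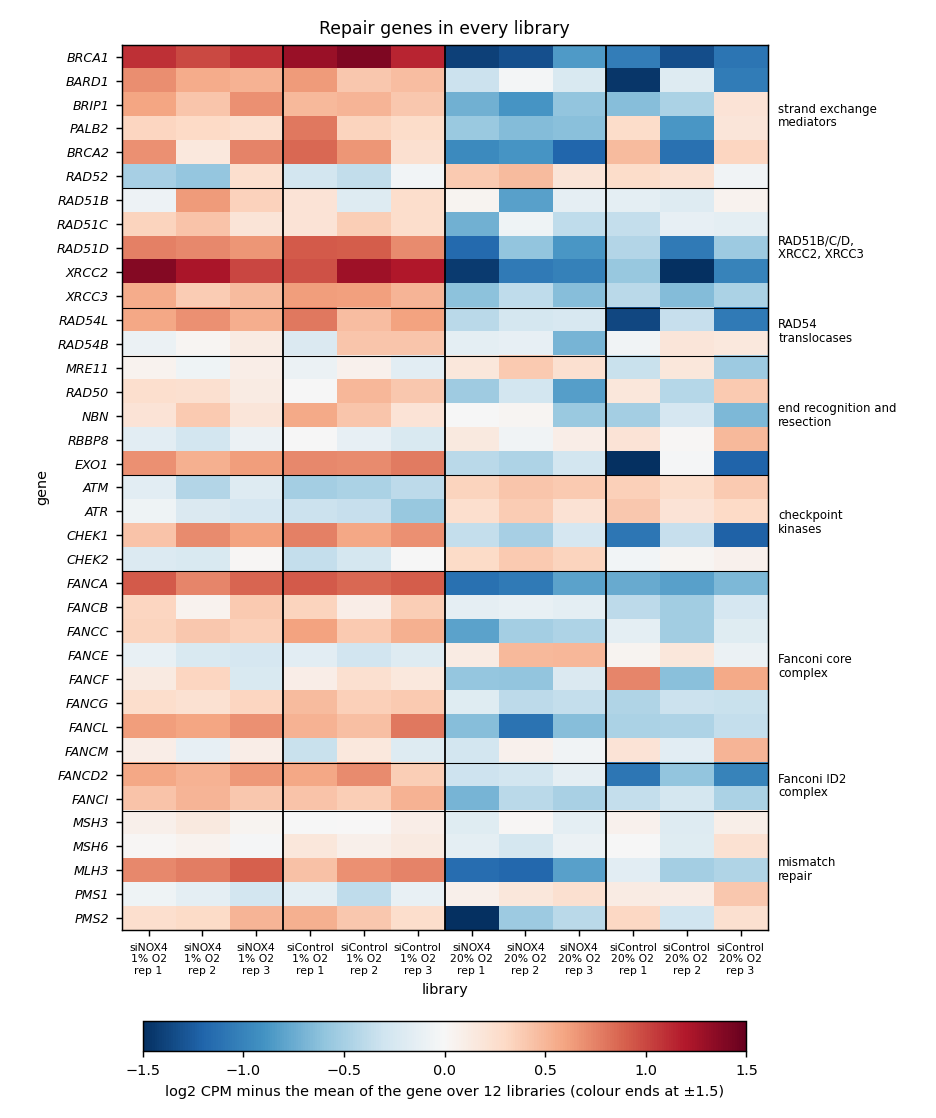
Level of each of the 37 genes in each of the 12 libraries, as log2 CPM minus the gene's mean over the libraries, with genes grouped by role (rows) and libraries by group (columns, siNOX4 left of siControl and 1% left of 20% oxygen). BRCA1, XRCC2, FANCA and RAD51D are above their mean in all 6 hypoxia libraries and below it in all 6 normoxia libraries, ATM and ATR the other way round, and siControl normoxia replicates 1 and 3 differ from replicate 2 for BRCA2, BARD1, EXO1 and FANCF.

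BRCA1 (ENSG00000012048, chromosome 17, 43044295 to 43170245, minus strand, GRCh38), the tumour suppressor and ubiquitin ligase that promotes end trimming and recruits PALB2, stood at 29.6, 27.5 and 29.5 CPM in siNOX4 hypoxia, against 5.21, 5.53 and 7.68 CPM in siNOX4 normoxia. With siControl the libraries stood at 34.0, 36.3 and 30.5 CPM in hypoxia, against 6.73, 5.51 and 6.46 CPM in normoxia. No hypoxia library came near a normoxia library. The log2 fold change was 2.23 (SE 0.15, edgeR adjusted p = 4.14e-07) in siNOX4 cells and 2.43 (SE 0.15, edgeR adjusted p = 2.73e-07) in siControl cells.

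BRCA2 (ENSG00000139618, chromosome 13, 32315474 to 32400266, plus strand), which acts on single-stranded DNA to start strand exchange, was at 7.34, 5.10 and 7.64 CPM in siNOX4 hypoxia, against 2.35, 2.46 and 1.99 CPM in siNOX4 normoxia. With siControl its values were 8.28, 7.23 and 5.41 CPM in hypoxia, against 6.32, 2.10 and 5.73 CPM in normoxia. The siNOX4 groups did not overlap, whereas siControl normoxia replicates 1 and 3 reached the range of hypoxia and replicate 2 lay with the siNOX4 normoxia libraries. The log2 fold change was accordingly 1.56 (SE 0.35, edgeR adjusted p = 0.00212) in siNOX4 cells and 0.56 (SE 0.32, edgeR adjusted p = 0.163) in siControl cells, and 1.72 (SE 0.32, edgeR adjusted p = 1.14e-04) in siControl cells without replicates 1 and 3. PALB2, the bridge between BRCA1 and BRCA2, behaved likewise, with 0.90 in siNOX4 cells (edgeR adjusted p = 0.0107), 0.53 in siControl cells (edgeR adjusted p = 0.0928) and 1.34 in siControl cells without these libraries (edgeR adjusted p = 2.84e-04).

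BARD1, the partner that BRCA1 needs as a ubiquitin ligase, rose by a log2 fold change of 0.79 in siNOX4 cells and 1.31 in siControl cells, or 0.70 in siControl cells without siControl normoxia replicates 1 and 3 (edgeR adjusted p = 0.00104). BRIP1, a helicase bound by BRCA1, rose by 1.30 in siNOX4 cells and 0.72 in siControl cells, or 0.94 in siControl cells without these 2 libraries. RAD52, which anneals single strands, went the other way: it was called lower in siNOX4 cells (-0.58, edgeR adjusted p = 0.0400), and its value in siControl cells was -0.38 (edgeR adjusted p = 0.168). The RAD52 call was lost without replicate 1 or 2 of siNOX4 hypoxia, siControl hypoxia or siNOX4 normoxia (adjusted p of up to 0.154), and the BARD1 call in siNOX4 cells without siNOX4 normoxia replicate 1 (0.72, edgeR adjusted p = 0.0519).

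RAD51B, RAD51C, RAD51D, XRCC2 and XRCC3 encode related proteins that form complexes acting in strand exchange, and 4 of these 5 genes rose in each of the siNOX4 and siControl comparisons. XRCC2 (ENSG00000196584, chromosome 7, 152644779 to 152676165, minus strand) was at 12.9, 11.6 and 10.0 CPM in siNOX4 hypoxia, against 1.84, 2.40 and 2.48 CPM in siNOX4 normoxia. The siControl cells had 9.70, 12.04 and 11.5 CPM in hypoxia, against 3.37, 1.30 and 2.498 CPM in normoxia. All hypoxia libraries were above all normoxia libraries, with log2 fold changes of 2.36 (SE 0.26, edgeR adjusted p = 1.51e-05) in siNOX4 cells and 2.21 (SE 0.26, edgeR adjusted p = 2.33e-05) in siControl cells. The siControl value was 3.09 (edgeR adjusted p = 1.53e-08) without siControl normoxia replicates 1 and 3.

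RAD51D (ENSG00000185379, chromosome 17, 35092208 to 35121522, minus strand), which binds XRCC2, was at 9.19, 8.91 and 8.61 CPM in siNOX4 hypoxia, against 2.42, 3.59 and 2.96 CPM in siNOX4 normoxia. In siControl cells it was at 10.3, 10.2 and 8.91 CPM in hypoxia, against 4.01, 2.60 and 3.72 CPM in normoxia. The groups did not overlap, and the log2 fold change was 1.57 (SE 0.19, edgeR adjusted p = 2.87e-05) in siNOX4 cells and 1.504 (SE 0.19, edgeR adjusted p = 3.65e-05) in siControl cells. The siControl value was 1.91 without siControl normoxia replicates 1 and 3. RAD51C rose by 0.69 in siNOX4 cells and by 0.49 in siControl cells, where it was no longer called without siControl normoxia replicates 1 and 3 (0.40, edgeR adjusted p = 0.0953) and was also lost without siControl normoxia replicate 1 alone (0.42, edgeR adjusted p = 0.0736) or siControl hypoxia replicate 2 (0.45, edgeR adjusted p = 0.0697). XRCC3 rose by 1.01 in siNOX4 cells and 1.09 in siControl cells, but 76.7% of its exon bases lie opposite KLC1, a kinesin light chain gene, and the reads were taken as unstranded. KLC1 itself was not called, at 0.21 in siNOX4 cells and 0.13 in siControl cells. RAD51B was not called, at 0.59 in siNOX4 cells and 0.19 in siControl cells, and was called higher in siNOX4 cells without siControl normoxia replicates 1 and 3 (0.59, edgeR adjusted p = 0.0293).

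Of the motor proteins that move along DNA during strand exchange, RAD54L rose by a log2 fold change of 0.91 in siNOX4 cells and 1.48 in siControl cells. The siControl value of RAD54L was 0.97 without siControl normoxia replicates 1 and 3, close to that of siNOX4 cells. LRRC41, on the opposite strand over 25.1% of the exon bases of RAD54L, had values of -0.16 in siNOX4 cells and -0.24 in siControl cells. RAD54B was near 2 CPM in every group and was not called. FSBP shares 59.1% of the exon bases of RAD54B on the same strand. No source used here says how reads of shared exons were assigned, so the level of RAD54B is uncertain.

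**Figure D2:**
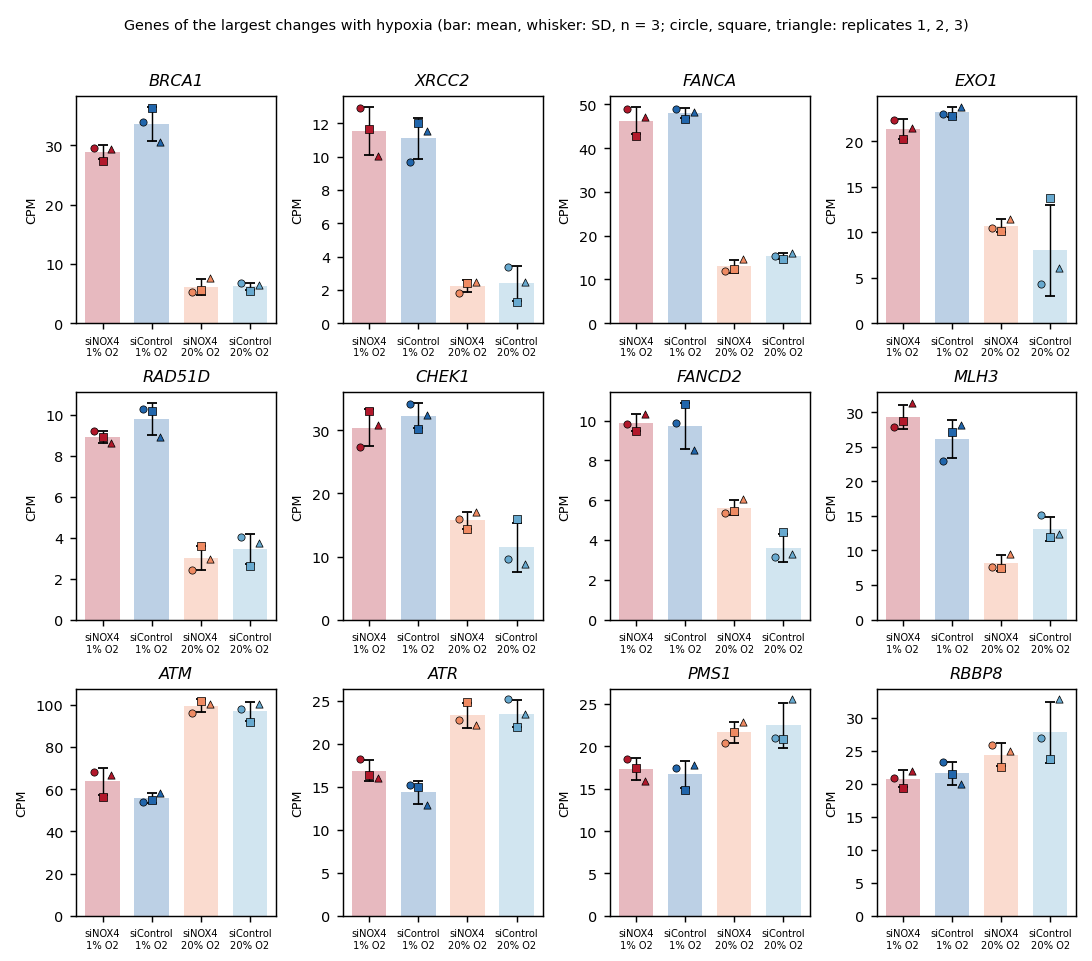
CPM of 12 genes in the 4 groups, with 1 panel a gene, a bar at the group mean, a whisker of ± 1 SD (n = 3) and a point for each library (circle, square and triangle for replicates 1, 2 and 3). The top rows show genes that are higher at 1% than at 20% oxygen with either siRNA, and ATM, ATR, PMS1 and RBBP8 in the bottom row have lower means at 1% oxygen.

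The genes that recognise and trim broken ends did not move as a block: 2 of 5 rose in siNOX4 cells, and 2 rose and 1 fell in siControl cells. EXO1 (ENSG00000174371, chromosome 1, 241847967 to 241895148, plus strand), the exonuclease of long-range end trimming and of mismatch excision, was at 22.4, 20.2 and 21.5 CPM in siNOX4 hypoxia, against 10.5, 10.1 and 11.5 CPM in siNOX4 normoxia. The siControl libraries held 23.0, 22.8 and 23.8 CPM in hypoxia, against 4.31, 13.7 and 6.03 CPM in normoxia. Hypoxia was higher in every library, but siControl normoxia spread widely, with replicate 2 near the siNOX4 normoxia libraries and replicates 1 and 3 far below. The log2 fold change was 1.00 (SE 0.29, edgeR adjusted p = 0.0108) in siNOX4 cells and 1.53 (SE 0.29, edgeR adjusted p = 8.83e-04) in siControl cells. Without siControl normoxia replicates 1 and 3 the siControl value was 0.76 (edgeR adjusted p = 7.94e-05).

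RBBP8 (ENSG00000101773, chromosome 18, 22798261 to 23026488, plus strand) encodes CtIP, which starts end trimming. It was at 20.9, 19.4 and 21.9 CPM in siNOX4 hypoxia, against 25.8, 22.5 and 25.0 CPM in siNOX4 normoxia. In siControl cells it was at 23.3, 21.5 and 19.9 CPM in hypoxia, against 26.9, 23.7 and 32.8 CPM in normoxia. The groups did not overlap, but the differences were small: -0.24 (SE 0.13, edgeR adjusted p = 0.131) in siNOX4 cells and -0.37 (SE 0.13, edgeR adjusted p = 0.0276) in siControl cells. The call did not hold without siControl normoxia replicates 1 and 3 (-0.14, edgeR adjusted p = 0.387), nor without siControl normoxia replicate 3 or siControl hypoxia replicate 2 or 3 alone (-0.23, -0.36 and -0.30).

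MRE11, RAD50 and NBN form the complex that first binds a broken end, and their values differed from each other. MRE11, its nuclease, was not called, at -0.24 in siNOX4 cells and 0.14 in siControl cells, and at -0.23 in siControl cells without siControl normoxia replicates 1 and 3, when it was called lower in siNOX4 cells (-0.24, edgeR adjusted p = 0.0332). RAD50, which tethers the ends, was called higher in siNOX4 cells (0.73, edgeR adjusted p = 0.0125) and stood at 0.23 (edgeR adjusted p = 0.378) in siControl cells. Its siNOX4 call was lost without siNOX4 normoxia replicate 3 (0.59, edgeR adjusted p = 0.0569), and its siControl value was 0.75 without siControl normoxia replicates 1 and 3. AC116366.3 shares 79.7% of the exon bases of RAD50 on the same strand. No source used here says how reads of shared exons were assigned, so the level of RAD50 is uncertain. NBN, which recruits ATM, was at 0.42 in siNOX4 cells (edgeR adjusted p = 0.0594) and rose by 0.87 in siControl cells (edgeR adjusted p = 0.00127). Its siControl value was 0.66 without siControl normoxia replicates 1 and 3.

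The sensor kinases were lower in hypoxia and their effector CHEK1 was higher. ATM (ENSG00000149311, chromosome 11, 108222484 to 108369102, plus strand), the kinase that responds to double-strand breaks, was at 68.1, 56.3 and 66.6 CPM in siNOX4 hypoxia, against 96.04, 101.9 and 100.3 CPM in siNOX4 normoxia. Levels in siControl cells were 53.8, 54.9 and 58.3 CPM in hypoxia, against 98.1, 91.8 and 100.3 CPM in normoxia. Every hypoxia library was below every normoxia library. The log2 fold change was -0.64 (SE 0.09, edgeR adjusted p = 6.35e-05) in siNOX4 cells and -0.80 (SE 0.09, edgeR adjusted p = 1.31e-05) in siControl cells. NPAT, a histone gene coactivator whose outermost annotated start lies 158 bp from that of ATM on the opposite strand, did not follow it. NPAT was called higher in siNOX4 cells (0.81, edgeR adjusted p = 3.48e-04) and was at 0.12 (edgeR adjusted p = 0.499) in siControl cells.

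ATR (ENSG00000175054, chromosome 3, 142449235 to 142578826, minus strand), the kinase of stalled forks, was at 18.3, 16.3 and 16.04 CPM in siNOX4 hypoxia, against 22.8, 24.9 and 22.2 CPM in siNOX4 normoxia. With siControl it was at 15.2, 15.0 and 12.8 CPM in hypoxia, against 25.2, 21.96 and 23.4 CPM in normoxia. The groups did not overlap, with log2 fold changes of -0.46 (SE 0.11, edgeR adjusted p = 0.00360) in siNOX4 cells and -0.71 (SE 0.11, edgeR adjusted p = 2.06e-04) in siControl cells.

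CHEK1 (ENSG00000149554, chromosome 11, 125625136 to 125676255, plus strand), the kinase that ATR activates, was at 27.3, 33.1 and 30.9 CPM in siNOX4 hypoxia, against 15.9, 14.4 and 16.98 CPM in siNOX4 normoxia. In siControl cells it was at 34.3, 30.3 and 32.5 CPM in hypoxia, against 9.57, 15.96 and 8.77 CPM in normoxia. It was higher in all hypoxia libraries, by 0.95 (SE 0.18, edgeR adjusted p = 8.92e-04) in siNOX4 cells and 1.501 (SE 0.19, edgeR adjusted p = 3.72e-05) in siControl cells on the log2 scale. The siControl value of CHEK1 was 1.02 without siControl normoxia replicates 1 and 3, close to the 0.95 of siNOX4 cells. CHEK2, the kinase downstream of ATM, was called lower in siNOX4 cells (-0.48, edgeR adjusted p = 0.00892) and was at -0.22 (edgeR adjusted p = 0.186) in siControl cells.

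**Figure D3:**
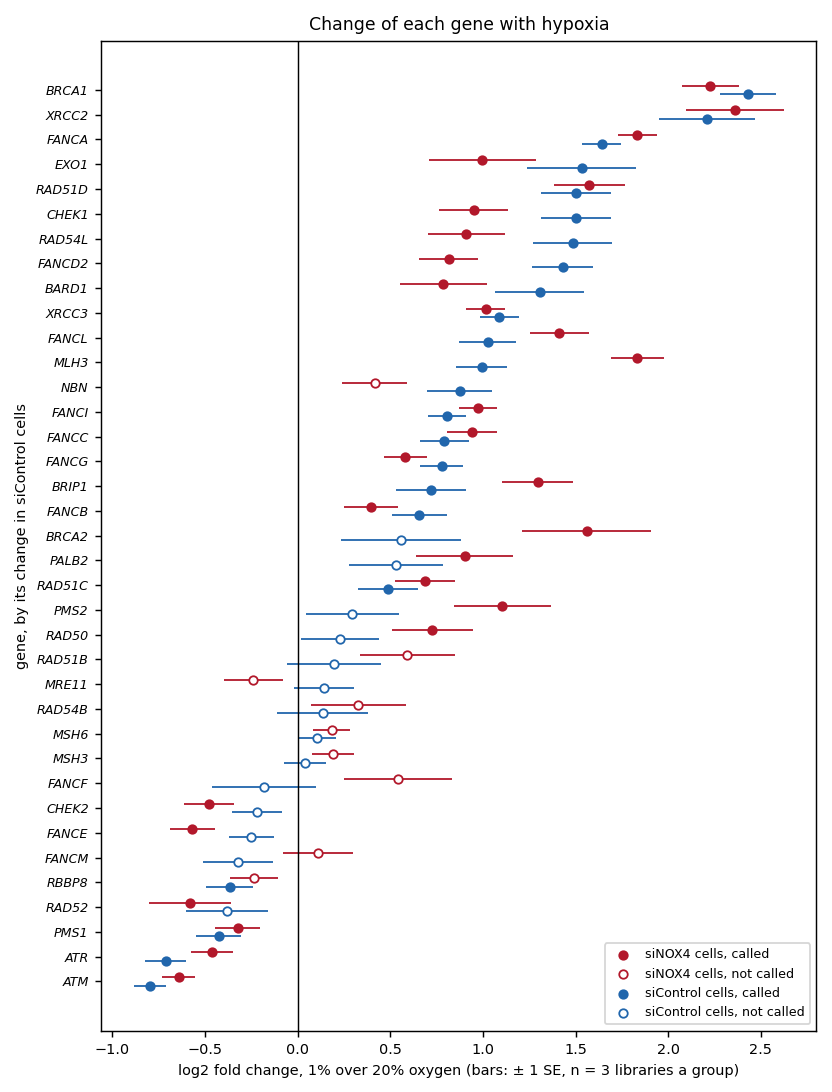
log2 fold change, 1% over 20% oxygen, of each of the 37 genes in siNOX4 cells (red) and siControl cells (blue), with bars of ± 1 SE, ordered by the value in siControl cells, and filled points for genes called at an adjusted p under 0.05. BRCA1 and XRCC2 lie at the top at 2.2 to 2.4 with either siRNA, and ATM and ATR at the bottom.

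Of the Fanconi core complex, 5 of 8 genes rose with hypoxia in siNOX4 cells and 5 in siControl cells. FANCA (ENSG00000187741, chromosome 16, 89737549 to 89816657, minus strand), a scaffold of the complex, was at 48.9, 42.8 and 47.2 CPM in siNOX4 hypoxia, against 11.9, 12.3 and 14.7 CPM in siNOX4 normoxia. The siControl cells had 48.9, 46.7 and 48.3 CPM in hypoxia, against 15.3, 14.7 and 16.1 CPM in normoxia. The groups lay far apart, with log2 fold changes of 1.83 (SE 0.11, edgeR adjusted p = 1.78e-07) in siNOX4 cells and 1.64 (SE 0.10, edgeR adjusted p = 2.84e-07) in siControl cells. ZNF276, which lies opposite 23.6% of the exon bases of FANCA, was at 0.70 in siNOX4 cells and -0.01 in siControl cells. FANCL, the ubiquitin ligase subunit, rose by 1.41 in siNOX4 cells and 1.02 in siControl cells, and FANCC, FANCG and FANCB rose by 0.94, 0.58 and 0.40 in siNOX4 cells and by 0.79, 0.78 and 0.66 in siControl cells. Without siControl normoxia replicates 1 and 3 the siControl value of FANCC was 1.04. The FANCB call in siNOX4 cells was lost without siNOX4 hypoxia replicate 1 or 3 or any single siNOX4 normoxia library (0.33 to 0.40).

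The other core genes did not share that rise. FANCE, which binds FANCD2 to the core, was called lower in siNOX4 cells (-0.57, edgeR adjusted p = 0.00181) and was at -0.25 (edgeR adjusted p = 0.105) in siControl cells, or -0.37 and called lower (edgeR adjusted p = 0.0346) without siControl normoxia replicates 1 and 3. FANCM, the DNA-binding translocase, was at 0.11 in siNOX4 cells and -0.32 in siControl cells, and FANCF, an adaptor, was at 0.54 in siNOX4 cells and -0.18 in siControl cells, none of them called. FANCF was called higher when siControl normoxia replicates 1 and 3 were left out, at 0.54 in siNOX4 cells (edgeR adjusted p = 0.00861) and 0.79 in siControl cells (edgeR adjusted p = 0.0131).

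Both genes of the ubiquitinated pair rose. FANCD2 (ENSG00000144554, chromosome 3, 10026414 to 10101930, plus strand) was at 9.86, 9.48 and 10.3 CPM in siNOX4 hypoxia, against 5.34, 5.46 and 6.04 CPM in siNOX4 normoxia. Levels in siControl cells were 9.86, 10.8 and 8.51 CPM in hypoxia, against 3.13, 4.39 and 3.29 CPM in normoxia. The hypoxia libraries of both siRNAs lay in the same range, above all normoxia libraries. The log2 fold change was 0.82 (SE 0.16, edgeR adjusted p = 9.00e-04) in siNOX4 cells and 1.43 (SE 0.16, edgeR adjusted p = 1.91e-05) in siControl cells. Without siControl normoxia replicates 1 and 3 the siControl value of FANCD2 was 1.14. FANCI, its partner, rose by 0.97 in siNOX4 cells and 0.81 in siControl cells.

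Mismatch repair genes divided. MLH3 (ENSG00000119684, chromosome 14, 75013764 to 75051532, minus strand), an endonuclease subunit that also acts in meiosis, was at 27.9, 28.7 and 31.3 CPM in siNOX4 hypoxia, against 7.63, 7.46 and 9.55 CPM in siNOX4 normoxia. With siControl its values were 22.9, 27.1 and 28.2 CPM in hypoxia, against 15.1, 11.9 and 12.3 CPM in normoxia. It was higher in all hypoxia libraries, by a log2 fold change of 1.83 (SE 0.14, edgeR adjusted p = 1.01e-06) in siNOX4 cells and 0.99 (SE 0.14, edgeR adjusted p = 7.89e-05) in siControl cells.

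MSH6 (ENSG00000116062, chromosome 2, 47695530 to 47810101, plus strand), which recognises single mismatches, was at 65.9, 67.6 and 64.2 CPM in siNOX4 hypoxia, against 58.8, 54.0 and 61.3 CPM in siNOX4 normoxia. The siControl libraries held 73.1, 68.5 and 71.5 CPM in hypoxia, against 64.8, 57.1 and 76.2 CPM in normoxia. The siNOX4 groups did not overlap but were close, and the siControl groups overlapped. The log2 fold change was 0.18 (SE 0.10, edgeR adjusted p = 0.138) in siNOX4 cells and 0.10 (SE 0.10, edgeR adjusted p = 0.401) in siControl cells. Without siControl normoxia replicates 1 and 3 it was called higher in both, at 0.18 in siNOX4 cells (edgeR adjusted p = 0.0205) and 0.32 in siControl cells (edgeR adjusted p = 0.00894). MSH3, which recognises larger loops, was not called, at 0.19 in siNOX4 cells and 0.04 in siControl cells. It averaged 18.3 ± 0.73 CPM in siNOX4 hypoxia and 17.6 ± 0.68 CPM in siControl hypoxia, against 16.01 ± 1.25 CPM in siNOX4 normoxia and 17.1 ± 1.78 CPM in siControl normoxia (SD, n = 3 each).

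PMS1 (ENSG00000064933, chromosome 2, 189784085 to 189877629, plus strand), a MutL homologue of little known function in repair, was at 18.5, 17.4 and 15.9 CPM in siNOX4 hypoxia, against 20.4, 21.7 and 22.8 CPM in siNOX4 normoxia. In siControl cells it was at 17.4, 14.9 and 17.8 CPM in hypoxia, against 21.0, 20.8 and 25.5 CPM in normoxia. Hypoxia libraries were lower in both, by small amounts: -0.32 (SE 0.12, edgeR adjusted p = 0.0366) in siNOX4 cells and -0.43 (SE 0.12, edgeR adjusted p = 0.0103) in siControl cells. The siControl call was lost without siControl normoxia replicates 1 and 3 (-0.32, edgeR adjusted p = 0.0587) or without siControl hypoxia replicate 2 (-0.34, edgeR adjusted p = 0.0574), and the siNOX4 call without siNOX4 hypoxia replicate 2 or 3, siControl hypoxia replicate 1 or siNOX4 normoxia replicate 2 or 3 (adjusted p of up to 0.132). PMS2, the main MutL endonuclease subunit, was called higher in siNOX4 cells (1.11, edgeR adjusted p = 0.00336) and was at 0.29 (edgeR adjusted p = 0.341) in siControl cells, or 0.70 and called higher (edgeR adjusted p = 0.0455) without siControl normoxia replicates 1 and 3. PMS2 has near-identical copies in the genome, and no source used here says how reads of such copies were assigned, so its level is uncertain.

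Set per kilobase of exon, the genes were all expressed at low to moderate levels. The deposited mean FPKM was lowest for RAD54B in siNOX4 and siControl hypoxia (0.370 ± 0.026 and 0.428 ± 0.099, SD, n = 3 each) and highest for FANCE in siNOX4 hypoxia (5.996 ± 0.331) and MSH6 in siControl hypoxia (6.37 ± 0.22). In normoxia BRCA2 was lowest in siNOX4 cells (0.184 ± 0.020) and RAD51D in siControl cells (0.300 ± 0.064), and FANCE was highest in siNOX4 and siControl cells (9.002 ± 1.24 and 7.07 ± 0.65). On this scale BRCA1 stood at 3.09 ± 0.13 FPKM in siNOX4 hypoxia and 3.61 ± 0.31 in siControl hypoxia, against 0.666 ± 0.144 in siNOX4 normoxia and 0.668 ± 0.066 in siControl normoxia. ATM, below BRCA1 in mean FPKM in hypoxia and above it in normoxia, stood at 2.61 ± 0.27 FPKM in siNOX4 hypoxia and 2.29 ± 0.10 in siControl hypoxia, against 4.13 ± 0.12 in siNOX4 normoxia and 3.98 ± 0.17 in siControl normoxia.

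siNOX4 against siControl was compared within each oxygen level to ask what part NOX4 takes in the levels of these genes. In hypoxia no difference was detected in the 37 genes: 0 were called, as for 0% of all genes tested, and 1 of 37, ATM, had an unadjusted p under 0.05 in edgeR, where 2.59% of all genes did. DESeq2 and limma-voom also called 0 of the 37. ATM had a mean of 63.7 ± 6.43 CPM in siNOX4 hypoxia, against 55.7 ± 2.33 CPM in siControl hypoxia (SD, n = 3 each), a log2 fold change of 0.19 (SE 0.09, edgeR adjusted p = 1.00), and the libraries overlapped. The largest difference in size was that of ATR, 0.24 (SE 0.11, edgeR adjusted p = 1.00). The median SE over the 37 genes was 0.16, and that of EXO1 was 0.28. These SEs draw on the spread of all 12 libraries, the split siControl normoxia group included. Differences of about the size of the SE, and some larger ones, were therefore not detectable. The libraries of siNOX4 and siControl hypoxia did not overlap for 5 of 37 genes (ATR higher, and BRCA1, EXO1, FANCG and MSH6 lower, with siNOX4), where 16.6% of all genes tested did not overlap.

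In normoxia the comparison rests on the siControl group that was split. One gene was called higher in siNOX4 cells and 2 lower, where 3.97% of all genes tested were called higher and 11% lower. FANCD2 was higher, with a mean of 5.61 ± 0.38 CPM in siNOX4 normoxia, against 3.604 ± 0.69 CPM in siControl normoxia (log2 fold change 0.64, SE 0.17, edgeR adjusted p = 0.0341), and the libraries did not overlap. MLH3 was lower, with 8.21 ± 1.16 CPM in siNOX4 normoxia, against 13.1 ± 1.76 CPM in siControl normoxia (-0.67, SE 0.14, edgeR adjusted p = 0.0302), and these libraries did not overlap either. PMS2 was lower, with 2.93 ± 1.12 CPM in siNOX4 normoxia, against 5.34 ± 1.15 CPM in siControl normoxia (-0.86, SE 0.27, edgeR adjusted p = 0.0482), again without overlap. An unadjusted p under 0.05 was found for 15 of 37 genes and for 38.4% of all genes tested.

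None of these 3 calls held without siControl normoxia replicates 1 and 3, when the values were 0.35 for FANCD2, -0.53 for MLH3 and -0.45 for PMS2 (edgeR adjusted p = 0.828, 0.612 and 0.862). Conversely, 19 of the 37 genes were called when replicate 2 of that group was left out, and 0 when replicate 1 or 3 alone was. The share of all genes called in those fits is not given here, so the count of 19 is not read as a result about these genes. The count was also 0 without siNOX4 hypoxia replicate 3 or any single siNOX4 normoxia library, and 1 without siNOX4 hypoxia replicate 2 or any single siControl hypoxia library. In the authors' deposited table none of the 37 genes had an adjusted p under 0.05 for siNOX4 against siControl at either oxygen level. Of all genes with a p there, 0.149% were under 0.05 in hypoxia and 2.37% in normoxia. A count of 0 in 37 lies near those shares and is not read as a result about these genes.

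The split was visible gene by gene. siControl normoxia replicates 1 and 3 both lay above all 4 other normoxia libraries for 14 of 37 genes (37.8%, beside 32.3% of all genes tested) and below them for 7 (18.9%, beside 31.1%). Those above were PALB2, BRCA2, RAD51D, XRCC2, RAD50, RBBP8, FANCA, FANCC, FANCF, FANCM, MSH3, MSH6, MLH3 and PMS2, and those below were BARD1, RAD54L, MRE11, EXO1, CHEK1, FANCE and FANCD2. FANCF, for one, was at 3.69, 3.66 and 4.77 CPM in siNOX4 normoxia, against 9.21, 3.59 and 8.22 CPM in siControl normoxia. RAD54L was at 5.85, 6.46 and 6.59 CPM in siNOX4 normoxia, against 3.01, 6.12 and 3.72 CPM in siControl normoxia. In both genes the siNOX4 libraries lay with siControl replicate 2.

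**Figure D4:**
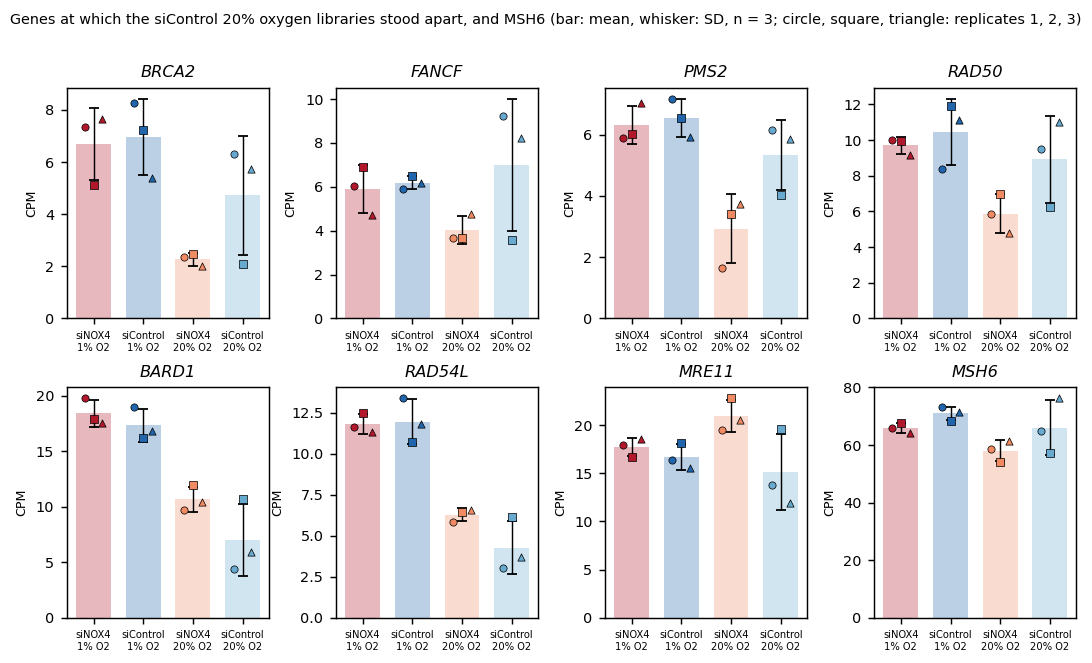
CPM of 8 genes in the 4 groups, drawn as bars at the mean with whiskers of ± 1 SD (n = 3) and a point for each library (circle, square and triangle for replicates 1, 2 and 3). Replicates 1 and 3 of siControl at 20% oxygen are high for BRCA2, FANCF, PMS2 and RAD50 and low for BARD1, RAD54L and MRE11, with replicate 2 near the siNOX4 libraries, and MSH6 changes little.

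The interaction asked whether the response to hypoxia differed between siNOX4 and siControl cells. No gene of the 37 was called, as for 0% of all genes tested, and 3 (FANCD2, MLH3 and PMS2) had an unadjusted p under 0.05 in edgeR, where 20.9% of all genes did. MLH3 had the smallest p, with a response larger by 0.84 (SE 0.20, edgeR adjusted p = 0.204) in siNOX4 cells than in siControl cells on the log2 scale. That difference was 0.69 (edgeR adjusted p = 0.764) without siControl normoxia replicates 1 and 3. DESeq2 called MLH3 alone, and limma-voom called none.

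Other genes of recombination, the Fanconi pathway and the ATR checkpoint, from lists written from textbook knowledge, were also called higher more often than lower. Of 26 other homologous recombination genes, 15 rose and 3 fell with hypoxia in siNOX4 cells, and 12 rose and 4 fell in siControl cells. SWSAP1, a recombination cofactor, rose by a log2 fold change of 1.52 in siNOX4 cells and 2.09 in siControl cells, and GEN1, a resolvase of crossed strands, by 2.78 in siNOX4 cells and 1.91 in siControl cells. Both were at very low levels in normoxia. SWSAP1 averaged 0.40 CPM with siNOX4 and 0.44 CPM with siControl there, and GEN1 0.63 and 1.60 CPM. MUS81, another such nuclease, was called higher in siNOX4 cells (1.11, edgeR adjusted p = 0.00138) and was at 0.29 (edgeR adjusted p = 0.304) in siControl cells. MUS81 was at 78.3, 32.3 and 69.4 CPM in siControl normoxia, with replicate 2 near siNOX4 normoxia (32.0 to 36.2 CPM). Of 13 other Fanconi genes, 8 rose and 2 fell in siNOX4 cells, and 7 rose and 2 fell in siControl cells. FAAP24 and FAAP100, accessory subunits of the core complex, rose by 1.53 and 1.46 in siNOX4 cells and by 1.94 and 1.00 in siControl cells, and ERCC1, a nuclease subunit, was called higher in siNOX4 cells (0.30, edgeR adjusted p = 0.0470) and was at 0.00 (edgeR adjusted p = 0.998) in siControl cells.

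Of 12 other genes of the ATR checkpoint, 9 rose and 1 fell in siNOX4 cells, and 6 rose and 1 fell in siControl cells. CDC25A, the phosphatase that this checkpoint restrains, rose by 2.43 in siNOX4 cells and 3.20 in siControl cells. ATRIP, the obligate partner of ATR, rose by 1.59 in siNOX4 cells and 1.61 in siControl cells, while ATR itself fell in both. TOPBP1, an activator of ATR, was not called, at 0.26 in siNOX4 cells and -0.13 in siControl cells. The 18 genes of end joining and of the chromatin response to breaks leaned less, with 6 higher and 4 lower in siNOX4 cells, and 5 higher and 5 lower in siControl cells. Their median log2 fold change was 0.25 in siNOX4 cells and -0.06 in siControl cells, or 0.31 in siControl cells without siControl normoxia replicates 1 and 3. H2AFX, the histone variant phosphorylated at breaks, rose by 1.59 in siNOX4 cells and 1.70 in siControl cells. LIG4, the ligase of end joining, was at -0.56 (edgeR adjusted p = 0.0797) in siNOX4 cells and fell by 1.31 in siControl cells. LIG4 was at 46.8, 19.6 and 47.4 CPM in siControl normoxia, so the size of that fall rests on replicates 1 and 3. XRCC6, which binds broken ends, was not called, at -0.05 in siNOX4 cells and -0.03 in siControl cells.

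**Figure D5:**
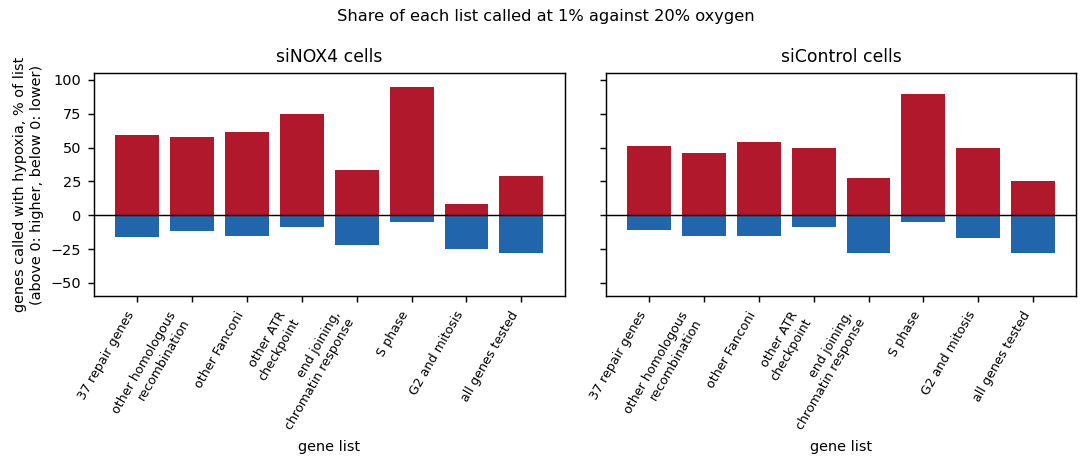
Percent of the genes of each list called higher (red, above 0) or lower (blue, below 0) at 1% than at 20% oxygen, in siNOX4 cells (left) and siControl cells (right), with all genes tested at the right of each panel. S phase genes have the highest share called higher, 94.7% with siNOX4 and 89.5% with siControl, and the 37 repair genes have 59.5% and 51.4%, beside 28.8% and 25.7% of all genes tested.

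Genes of S phase, when DNA is copied, moved with the repair genes. Of 19 such genes 18 rose and 1 (CCNE1) fell with hypoxia in siNOX4 cells, and 17 rose and 1 (CCNE1) fell in siControl cells. Their summed level was 1147 to 1185 CPM in siNOX4 hypoxia and 1212 to 1255 CPM in siControl hypoxia, against 528 to 576 CPM in siNOX4 normoxia and 562 to 618 CPM in siControl normoxia. CCNE2, a cyclin of S phase entry, rose by 1.91 in siNOX4 cells and 2.77 in siControl cells, from low means of 1.25 CPM in siNOX4 normoxia and 0.79 CPM in siControl normoxia. MCM3, of the replicative helicase, was called higher in siNOX4 cells (1.13, edgeR adjusted p = 4.03e-04) and was at 0.46 (edgeR adjusted p = 0.0617) in siControl cells. MCM3 was at 78.0, 39.8 and 79.2 CPM in siControl normoxia, with replicate 2 within the range of siNOX4 normoxia (35.6 to 43.2 CPM). Genes of G2 and mitosis did not share this pattern in siNOX4 cells, where 1 of 12 rose and 3 fell. In siControl cells 6 rose and 2 fell. The median log2 fold change of these genes there was 0.45, or 0.16 without siControl normoxia replicates 1 and 3. Their summed level was 247 to 266 CPM in siNOX4 hypoxia and 273 to 280 CPM in siControl hypoxia, against 250 to 261 CPM in siNOX4 normoxia and 176 to 269 CPM in siControl normoxia. MKI67, a marker of cycling cells, rose by 1.61 in siNOX4 cells and 1.98 in siControl cells. CCNA2, a cyclin of S and G2 phase, was at 0.38 in siNOX4 cells (edgeR adjusted p = 0.438) and rose by 1.43 in siControl cells (edgeR adjusted p = 0.0121). CCNA2 was at 1.89, 9.96 and 2.86 CPM in siControl normoxia, so the size of that rise rests on replicates 1 and 3. TOP2A, a topoisomerase, was called lower in siNOX4 cells (-0.70, edgeR adjusted p = 0.00732) and was at -0.20 (edgeR adjusted p = 0.403) in siControl cells. The part of cell cycle distribution in the change of the repair genes was not tested.

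E2F factors bind promoters of many replication and repair genes, so the promoters were searched for the letters TTTCCCGC, TTTGGCGC, TTTCGCGC and TTTGCCGC on both strands. A promoter here is the RefSeq window of 250 bases before to 50 after the start (GRCh38.p14), which was held for 34 of the 37 genes. A match was found in 8 of these 34 genes (XRCC2, EXO1, FANCA, FANCC, FANCD2, MSH3, MSH6 and PMS2), beside 3.99% of 27305 genes with a promoter and 3.31% of 35116 promoters. The matches lay in 5 of 17 matched genes that rose with both siRNAs and in 3 of 17 others. The windows below, printed 5′ to 3′ on the strand of the gene with the matched letters in capitals, are shown for genes that rose (XRCC2, EXO1, FANCA, FANCD2) and for MSH6, which was not called with all 12 libraries and was called higher in both siRNA comparisons without siControl normoxia replicates 1 and 3. They lie at chr7:152676112-152676160 (minus strand), chr1:241848168-241848233 (plus), chr16:89816772-89816859 (minus), chr3:10026395-10026466 (plus) and chr2:47783108-47783174 (plus).
XRCC2: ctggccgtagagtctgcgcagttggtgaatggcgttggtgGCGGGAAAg
EXO1: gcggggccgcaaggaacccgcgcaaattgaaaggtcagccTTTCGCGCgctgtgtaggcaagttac
FANCA: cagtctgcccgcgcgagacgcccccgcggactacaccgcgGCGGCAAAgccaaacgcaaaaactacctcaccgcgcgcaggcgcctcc
FANCD2: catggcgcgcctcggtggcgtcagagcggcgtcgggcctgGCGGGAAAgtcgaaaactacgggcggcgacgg
MSH6: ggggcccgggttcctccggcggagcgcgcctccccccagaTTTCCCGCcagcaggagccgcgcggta

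A match is a description of letters, was present in genes that rose and in genes that were not called, and was absent from the promoter window of BRCA1, which rose with both siRNAs. Of other short motifs searched on both strands, CCAAT was in 15 of the 34 genes (39.7% of all genes with a promoter), ACGTG, the core letters bound by hypoxia-inducible factors, in 11 (24.9%), and TTTGAA or TTCGAA, bound at many genes of late cell cycle, in 3 (19.5%).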

How the data were processed

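Total RNA of 12 BCPAP libraries (TruSeq RNA kit, per the labels' protocols, taken as unstranded) was analysed from the table of the whole series. It held whole-number counts per gene, deposited by the authors, and FPKM, also deposited, made from gene length (a deposited column) and library totals. The authors also deposited log2 fold changes and adjusted p-values of 4 comparisons. Bowtie 0.12.2 and the mouse builds mm8 and mm9 appear, with no role, in the submitters' processing notes. No source used here names the counting or testing tool. The table's genes matched GENCODE 29 (GRCh38) by identifier and place for 58724 of 58735 genes, all 37 members among them.

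CPM are counts divided by the TMM-scaled library total and brought to a common size. Counts were fitted with edgeR 4.0.16 (R 4.3.3): TMM factors (0.903 to 1.09), filterByExpr by group, 1 mean per group over 12 libraries, quasi-likelihood F test, two-sided, 8 residual degrees of freedom (prior 4.63), common biological coefficient of variation 0.164. Benjamini-Hochberg adjustment ran over 17277 genes. Fits were tested on simulated data. If transfections were not independent, p-values measure technical spread only. Exact permutation tests on 3 against 3 libraries cannot go below p = 0.1 and were not used.

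Members, lists and tests were chosen with earlier results of these data known. Values in every library were given for BRCA1, BRCA2, ATM, ATR, FANCD2 and MSH6, the 6 largest rises and 4 largest falls called in siControl cells, and the smallest p of each siNOX4 comparison and of the interaction; from every other list, the 2 largest called changes in siControl cells and the uncalled gene of highest level. Other genes were named after their values were seen. Alternatives were DESeq2 1.42.0 and its size factors, limma 3.58.1 (voom, and trend on log2 FPKM plus 1 or 0.1), upper-quartile scaling, other filters, a replicate term, only the groups compared, and libraries left out. Some items that the naming rule covers are not reported here.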

Additional observations from a re-analysis of the deposited data

How the results depend on the processing

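No called gene changed direction under any alternative run. Values not called did: without siControl normoxia replicates 1 and 3, 3 of 37 genes changed sign for hypoxia in siControl cells (MRE11, FANCF and FANCM), 16 for siNOX4 in normoxia and 13 for the interaction. The counts of genes higher with hypoxia (22 in siNOX4 cells and 19 in siControl cells) stayed within 1.5 times under each alternative, at 20 to 26 and 18 to 20 with 1 library left out, and the counts of genes lower (6 and 4) ranged from 4 to 8 and from 2 to 6. With no filter the genes lower were 3 in siNOX4 cells and 2 in siControl cells, and without siControl hypoxia replicate 2 they were 2 in siControl cells (ATM and ATR). Upper-quartile scaling moved the median of all genes to 0.112 in siNOX4 cells and 0.111 in siControl cells (log2), with 26 genes higher and 4 lower in siNOX4 cells and 21 and 3 in siControl cells. For siNOX4 against siControl in normoxia the count of 3 became 9 with no filter and 9 with DESeq2. It became 0 with limma-voom, 0 with limma-trend on log2 FPKM at either pseudocount, 0 with only the groups compared and 0 without siControl normoxia replicates 1 and 3. With 1 library left out it ranged from 0 to 19, the highest without siControl normoxia replicate 2 and the others from 0 to 2. In hypoxia it was 0 in each fit with a library left out. The interaction count of 0 became 1 (MLH3) with no filter and 1 (MLH3) with DESeq2, and ranged from 0 to 16 with 1 library left out, the highest again without siControl normoxia replicate 2. The share of all genes called under each alternative is not given here, so these counts are not read as results about the 37 genes. Beyond the fewer libraries or genes entered, the cause of these shifts was not tested. A lone siControl normoxia library is assumed to vary like the other groups. The filter at 5 CPM tested 35 of the 37 genes and the FPKM fits 33. Replicate numbers are shared between groups, but same-numbered libraries did not deviate together (correlations of -0.026 to 0.15). A replicate block gave 23 higher and 6 lower in siNOX4 cells, 19 and 4 in siControl cells, 2 (FANCD2 and MLH3) for siNOX4 in normoxia, and 0 in hypoxia and for the interaction. Genes at a few CPM, such as RAD54B, limit the precision at these depths.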

Other observations

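In the authors' deposited table, which gives normoxia over hypoxia, 27 of the 37 genes had an adjusted p under 0.05 in siNOX4 cells (21 higher and 6 lower in hypoxia) and 21 in siControl cells (19 higher and 2 lower in hypoxia), beside 35.6% and 24.4% of the genes with a p in that table.

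Genes on opposite strands whose outermost annotated starts lie close together did not always move alike. Such a start need not be that of the RefSeq promoter: for MSH6 it lies at 47695530, while the promoter window shown above lies at 47783108 to 47783174. Which starts these cells used was not tested. PMS1 fell with hypoxia in siControl cells (-0.43) while ORMDL1, a regulator of sphingolipid synthesis that starts 286 bp away, was called higher (0.47, edgeR adjusted p = 0.0226). In siNOX4 cells PMS1 was at -0.32 and ORMDL1 was not called (0.05, edgeR adjusted p = 0.81). FANCB rose in siControl cells (0.66) while MOSPD2, 372 bp away, was called lower (-0.74, edgeR adjusted p = 0.00289). In siNOX4 cells FANCB was at 0.40 and MOSPD2 was not called (-0.36, edgeR adjusted p = 0.0906). BRCA1 rose by 2.43 in siControl cells. NBR1, an autophagy receptor gene whose outermost annotated start is 236 bp from that of BRCA1, was not called (-0.10, edgeR adjusted p = 0.305). In siNOX4 cells BRCA1 rose by 2.23 and NBR1 was not called (0.04, edgeR adjusted p = 0.709). XRCC3 and ZFYVE21, 226 bp apart, both rose in siControl cells (1.09 and 0.97) and in siNOX4 cells (1.01 and 0.81). These neighbours were chosen after their values were seen.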
